A study of Mus musculus with 8 samples.

Results

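The 7 genes described here, Hmox1, Blvrb, Fth1, Ftl1, Slc40a1, Tfrc and Slc11a1, act in the breakdown of heme and in the storage, export and uptake of iron. They were taken by name from the 20340 genes of the deposited tables, and all 7 were found in each of the 8 tables. The tables hold UMI counts (unique molecular identifiers, which count captured transcripts) of single cells from the brains of male C57BL/6J mice aged 8 to 9 weeks. The middle cerebral artery was blocked for 60 min with a suture inside the vessel and then reopened, a model of ischemic stroke, and each brain was divided into the hemisphere of the occlusion (ipsilateral) and the opposite one (contralateral). There was 1 library for each combination of hemisphere, genotype label (Prdx1-/-, here KO, or Prdx1+/+, here WT) and time (24 h or 48 h). All mice, in both hemispheres and under both labels, had the occlusion, so the contralateral hemisphere is that of an operated brain and there were no sham animals. Cells were released with enzymes at 37 °C after the brains had been perfused with cold saline, cleared on Percoll and sorted as live cells with no cell type marker, per the labels' protocols. The number of animals per library is not in the labels, so a p-value here speaks of variation among these 8 libraries, part of which may be technical, and not among animals.

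Heme from dying cells and from red blood cells is opened by heme oxygenase 1, the product of Hmox1, which releases iron, carbon monoxide and biliverdin. Biliverdin reductase B, the product of Blvrb, reduces biliverdin and flavins. Free iron is held in ferritin, a shell built of a heavy chain (Fth1), which oxidizes iron, and a light chain (Ftl1), which helps it to mineralize. Ferroportin (Slc40a1) is the iron exporter of the cell membrane, the transferrin receptor (Tfrc) takes up iron bound to transferrin, and Slc11a1 encodes NRAMP1, a metal transporter of the phagosome membrane of macrophages and neutrophils. In the brain, microglia and incoming macrophages are known to take up iron and heme after injury.

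Of the 7 genes, 4 carry an iron-responsive element, a short hairpin in the untranslated region to which iron regulatory proteins bind when iron is low. In a 5′ UTR that binding is known to block translation, and in a 3′ UTR to protect the transcript from decay, so transcript levels of the first kind do not show protein levels. The elements are shown because they separate the members by the kind of control that works on the transcript, which is what was counted here. They were found in the mouse build GRCm38 (equal to mm10) by a search for a C, any 5 bases, the loop CAGTGN and 5 bases that pair with the 5 before the loop. The loop is in capitals, and each is written 5′ to 3′ on the strand of its gene.
Fth1, 5′ UTR, chr19:9982733-9982759, + strand: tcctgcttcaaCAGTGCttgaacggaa
Ftl1, 5′ UTR, chr7:45459780-45459806, - strand: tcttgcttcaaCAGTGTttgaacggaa
Slc40a1, 5′ UTR, chr1:45925466-45925492, - strand: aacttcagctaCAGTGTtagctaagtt
Tfrc, 3′ UTR, chr16:32631220-32631246, + strand: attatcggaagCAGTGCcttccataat
Tfrc, 3′ UTR, chr16:32631599-32631625, + strand: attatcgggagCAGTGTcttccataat
Tfrc, 3′ UTR, chr16:32631664-32631690, + strand: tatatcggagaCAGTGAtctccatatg
Tfrc, 3′ UTR, chr16:32631711-32631737, + strand: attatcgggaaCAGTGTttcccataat
The 3 members with the element in the 5′ UTR encode the ferritin chains and the exporter, and the search found it 4 times in the 3′ UTR of Tfrc, the receptor. The same search found it in the 5′ UTR of 21 of 21875 genes (0.096%) and in the 3′ UTR of 117 (0.535%). No match was found in the UTRs of Hmox1, Blvrb or Slc11a1. Hmox1 lies at chr8:75093621-75100589, Blvrb at chr7:27447978-27466144 and Slc11a1 at chr1:74375195-74386062, all on the + strand.

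Cells were gated into classes by marker genes that include none of the members, and the names end in "-like" because the labels give no sort marker. Of 39945 cells, 38025 passed the filters on genes, mitochondrial UMIs and doublets, and 35862 fell into a class. Microglia-like cells (20707) were the largest class, followed by monocyte/macrophage-like (7212), neutrophil-like (5760), T and NK cell-like (779) and B cell-like cells (765). Libraries held 39433266 to 70111421 UMIs. Pairs of libraries shared 3 to 17 cell barcodes. Levels are CPM, the UMIs of a gene per 1000000 UMIs of the summed cells of a class in a library, and "called" means an adjusted p under 0.05 over all genes tested in that class (edgeR's quasi-likelihood test, Benjamini-Hochberg adjustment).

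Prdx1, the gene named by the label, went against it at 24 h. In microglia-like cells it had 436.9 CPM (ipsilateral) and 89.5 CPM (contralateral) in the libraries labelled KO at 24 h and 6.6 and 5.9 CPM in those labelled KO at 48 h, against 498.3 and 262.5 CPM in the libraries labelled WT at 24 h and 609.5 and 342.2 CPM in those labelled WT at 48 h. Every comparison by genotype label below is therefore one between libraries carrying these labels, and values of the 48 h libraries alone are given for the members named first. The WT contralateral 24 h library also stood apart in heat-shock transcripts, a list added after the data were seen. Its microglia-like cells had 3140 CPM of Hspa1a, an inducible heat-shock protein of the Hsp70 family, against 408.7 to 673.0 CPM in the other 7 libraries. Results that rest on this library are given with and without it.

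In microglia-like cells 5 of the 7 members were higher in the ipsilateral hemisphere and 1, the exporter Slc40a1, was lower. The higher ones were Hmox1, Blvrb, both ferritin chains and Tfrc, with log2 fold changes of 0.82 to 1.50. Slc11a1 was not called. Of all 13635 genes tested in these cells 43.9% were called, 21.8% higher and 22.1% lower, beside 6 of the 7 members. The members were chosen with earlier results of these data known, so that count cannot set the list apart from other genes. No test of the list was made. In the 4 libraries labelled WT alone 3 members were called, where 9.22% of 13190 genes were.

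Hmox1 had 524.5 CPM (KO label, 24 h), 581.3 CPM (KO, 48 h), 752.9 CPM (WT, 24 h) and 375.6 CPM (WT, 48 h) in ipsilateral microglia-like cells, against 162.6, 143.2, 499.3 and 142.3 CPM in contralateral ones in the same order. Each ipsilateral library was above its contralateral partner, and the groups overlapped through the WT contralateral 24 h library, which was over 3 times as high as the other contralateral ones. The log2 fold change was 1.50 ± 0.39 (SE; adjusted p = 0.0318, edgeR). Without that library it was 1.93 (adjusted p = 0.00083). The call was lost when any 1 of 5 other libraries was left out, with adjusted p of 0.078 (KO ipsilateral 24 h), 0.095 (WT ipsilateral 24 h), 0.059 (KO contralateral 24 h), 0.095 (KO contralateral 48 h) and 0.086 (WT contralateral 48 h), and log2 fold changes from 1.17 to 1.93 over all 8 omissions. At 48 h alone the log2 fold change was 1.78 (adjusted p = 0.0023), and at 24 h alone it was 1.25 (adjusted p = 0.145).

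The difference was also seen in how many cells held a UMI. After each cell was thinned to 3000 UMIs, Hmox1 was found in 50.4% of ipsilateral microglia-like cells (exact binomial 95% interval 49.2 to 51.7%, counting error only) and in 25.5% of contralateral ones (24.8 to 26.2%), or 22.0% (21.2 to 22.8%) without the WT contralateral 24 h library. In T and NK cell-like cells, a lineage in which little Hmox1 is known, the share was 2.62% at the same thinned depth, with median depths before thinning of 5773 UMIs in that class and 8266 UMIs in microglia-like cells. Hmox1 UMIs were unevenly spread: the 10% of microglia-like cells with the most held 44.2 to 65.9% of them in the 4 ipsilateral libraries and 68.4 to 70.8% in the 4 contralateral ones. All ipsilateral shares were below all contralateral ones, in cells not thinned for this measure.

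Blvrb, which encodes biliverdin reductase B, had 116.7 CPM (KO label, 24 h), 85.2 CPM (KO, 48 h), 210.8 CPM (WT, 24 h) and 119.2 CPM (WT, 48 h) in ipsilateral microglia-like cells, against 75.2, 80.8, 82.5 and 69.4 CPM in contralateral ones. The groups did not overlap, but the KO-labelled 48 h ipsilateral value was close to the contralateral ones, and the WT 24 h ipsilateral value was the highest (log2 fold change 0.82 ± 0.20, adjusted p = 0.0171). The call was lost without the KO contralateral 24 h library (adjusted p = 0.068), without the WT contralateral 48 h library (adjusted p = 0.060) and in the 48 h libraries alone (0.50, adjusted p = 0.099).

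**Figure D1:**
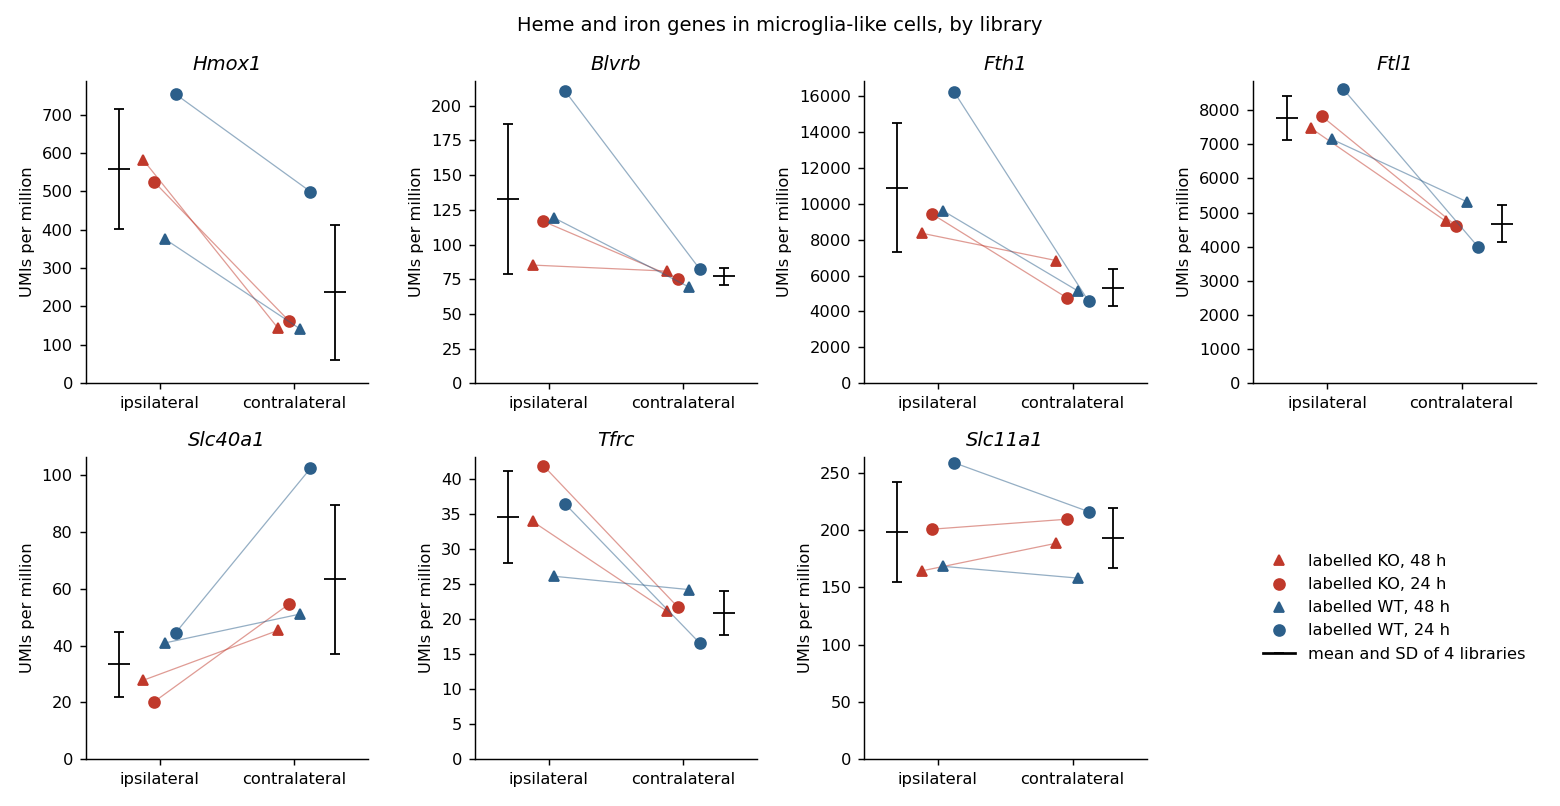
Levels of the 7 members in microglia-like cells, in CPM of the class sum, by hemisphere. Each point is 1 library, the colour and shape give genotype label and time, lines join libraries of the same label and time, and black marks are the mean and SD of 4. Hmox1 and Slc11a1 overlap between hemispheres and the other members do not. The share of all genes without overlap was not counted, so this does not set the members apart from other genes. The WT contralateral 24 h library stands apart in Hmox1 (499.3) and Slc40a1 (102.5).

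The plot of microglia-like levels by library shows the storage genes apart from the exporter. Fth1 had 9419 CPM (KO label, 24 h), 8364 CPM (KO, 48 h), 16250 CPM (WT, 24 h) and 9608 CPM (WT, 48 h) in ipsilateral cells, against 4753, 6836, 4562 and 5143 CPM in contralateral cells. All ipsilateral libraries were above all contralateral ones, and WT at 24 h was the highest (log2 fold change 1.10 ± 0.24, adjusted p = 0.0107).

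Ftl1 had 7829 CPM (KO label, 24 h), 7476 CPM (KO, 48 h), 8624 CPM (WT, 24 h) and 7143 CPM (WT, 48 h) in ipsilateral cells, against 4612, 4754, 4003 and 5316 CPM in contralateral cells. The groups were well apart, and the 4 ipsilateral libraries lay within a narrower range than for Fth1. The log2 fold change was 0.83 ± 0.12 (adjusted p = 0.00074), the smallest adjusted p of the members. Fth1 and Ftl1 kept their calls whichever library was left out, and Ftl1 missed the threshold in the WT-labelled libraries alone (0.87, adjusted p = 0.058). The tables also count Ftl1-ps1, a near-identical copy of Ftl1, at 14.3 to 56.7 CPM in the same cells, so the division of reads between the copies is uncertain, though the copy was a small part of the sum.

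Slc40a1, the exporter, ran the other way. It had 20.2 CPM (KO label, 24 h), 27.8 CPM (KO, 48 h), 44.5 CPM (WT, 24 h) and 40.9 CPM (WT, 48 h) in ipsilateral microglia-like cells, against 54.6, 45.3, 102.5 and 51.1 CPM in contralateral ones. Every ipsilateral library was below every contralateral one, and the WT contralateral 24 h library was again the highest. The log2 fold change was -0.85 ± 0.20 (adjusted p = 0.0161). It was -0.68 without the WT contralateral 24 h library (adjusted p = 0.069), and the call was also lost without the WT ipsilateral 24 h library (adjusted p = 0.067) and in the WT-labelled libraries alone (-0.67, adjusted p = 0.124). After thinning, 9.97% of ipsilateral and 17.4% of contralateral microglia-like cells held a Slc40a1 UMI, the second being 14.7% without the WT contralateral 24 h library.

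Tfrc, the receptor for transferrin, had 41.9 CPM (KO label, 24 h), 33.9 CPM (KO, 48 h), 36.4 CPM (WT, 24 h) and 26.1 CPM (WT, 48 h) in ipsilateral cells, against 21.6, 21.05, 16.6 and 24.2 CPM in contralateral cells. The groups did not overlap, with the WT 48 h pair closest together. The log2 fold change was 0.83 ± 0.18 (adjusted p = 0.0086), and the call held with each library left out in turn, though not in the 48 h libraries alone (0.47, adjusted p = 0.060) or the WT-labelled libraries alone (0.75, adjusted p = 0.163). After thinning, a Tfrc UMI was found in 9.23% of ipsilateral and 5.03% of contralateral microglia-like cells.

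Slc11a1, the phagosomal transporter, did not differ beyond its spread between hemispheres in these cells. It had 200.9 CPM (KO label, 24 h), 164.4 CPM (KO, 48 h), 259.0 CPM (WT, 24 h) and 168.4 CPM (WT, 48 h) in ipsilateral cells, against 209.6, 188.6, 216.2 and 158.1 CPM in contralateral cells. The groups overlapped, with 2 of 4 pairs higher on the ipsilateral side (log2 fold change 0.12 ± 0.09, adjusted p = 0.299).

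The markers used for gating moved with hemisphere too. The summed microglia markers were at 10760 to 13220 CPM in ipsilateral microglia-like cells and 17640 to 26820 CPM in contralateral ones. Erythroid markers, hemoglobin genes among them, summed to 39.9 to 408.9 CPM in ipsilateral and 17.2 to 210.3 CPM in contralateral sums. Monocyte/macrophage markers summed to 552.5 to 974.8 CPM in ipsilateral and 239.4 to 559.3 CPM in contralateral sums, and border macrophage markers to 165.2 to 213.0 CPM in ipsilateral and 329.9 to 639.7 CPM in contralateral sums. The B cell, astrocyte, endothelial and mural marker lists were lower in all ipsilateral than in all contralateral sums, at 89.7 to 106.8 CPM in ipsilateral and 167.8 to 261.4 CPM in contralateral sums for the first of these. The part of these lists in the differences of the members was not tested. Slc40a1 was at 3.2 CPM or less in every monocyte/macrophage-like sum.

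Infiltrating classes gave fewer calls. In neutrophil-like cells Hmox1 and Fth1 rose in the ipsilateral hemisphere, 2 of 7 members against 1.4% of the 8756 genes tested. Hmox1 had 250.3 CPM (KO label, 24 h), 155.0 CPM (KO, 48 h), 215.6 CPM (WT, 24 h) and 205.9 CPM (WT, 48 h) in ipsilateral neutrophil-like cells, against 92.8, 73.9, 54.7 and 61.7 CPM in contralateral ones. All 4 ipsilateral libraries were above all 4 contralateral ones (log2 fold change 1.62 ± 0.19, adjusted p = 0.00785). The value ranged from 1.49 to 1.75 when a library was left out, and the call was lost without the WT ipsilateral 24 h (adjusted p = 0.062), KO contralateral 24 h (adjusted p = 0.05004) or KO ipsilateral 24 h library (adjusted p = 0.097).

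Fth1 had 27740 CPM (KO label, 24 h), 20780 CPM (KO, 48 h), 28080 CPM (WT, 24 h) and 27460 CPM (WT, 48 h) in ipsilateral neutrophil-like cells, against 15410, 14110, 6539 and 12780 CPM in contralateral ones. The groups did not overlap, and the WT contralateral 24 h library was the lowest. The log2 fold change was 1.22 ± 0.26 (adjusted p = 0.0458), close to the threshold: the call held in 1 of 8 omissions, that of the KO ipsilateral 48 h library (1.39, adjusted p = 0.0094), and adjusted p was 0.087 to 0.25 in the other 7, with log2 fold changes of 0.97 to 1.34. The contralateral neutrophil-like sums are small, with 44 cells in the KO 24 h library, and 590 cells in the 4 libraries against 5170 ipsilateral ones. Neutrophil markers summed to 163900 to 268000 CPM in ipsilateral and 243300 to 366700 CPM in contralateral sums, and erythroid markers to 71.9 to 653.9 CPM in ipsilateral and 8.07 to 260.1 CPM in contralateral sums. Ependymal and choroid plexus markers were higher in every ipsilateral sum (405.0 to 910.3 CPM, against 67.8 to 301.3 CPM in contralateral sums), and B cell markers were lower (12.1 to 20.0 CPM in ipsilateral and 25.5 to 60.5 CPM in contralateral sums). Their part was not tested.

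The other 5 members were not called between hemispheres in neutrophil-like cells, with log2 fold changes of 0.80 (Blvrb), 0.65 (Slc11a1), 0.55 (Ftl1), 0.46 (Tfrc) and -0.11 (Slc40a1). Slc40a1 had 73.2 to 120.4 CPM in ipsilateral and 79.8 to 119.2 CPM in contralateral neutrophil-like cells, so the ranges nearly coincided. The hemisphere difference of Slc40a1 was 0.76 ± 0.31 higher in neutrophil-like than in microglia-like cells on the log2 scale, which was not called (adjusted p = 0.246, where 1.37% of genes were), and 0.48 without the WT contralateral 24 h library (adjusted p = 0.562).

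In monocyte/macrophage-like cells no member was called between hemispheres, where 28 of 11037 genes (0.254%) were. Slc11a1 came closest. It had 274.3 CPM (KO label, 24 h), 199.1 CPM (KO, 48 h), 273.5 CPM (WT, 24 h) and 215.0 CPM (WT, 48 h) in ipsilateral cells, against 129.4, 168.1, 126.9 and 146.2 CPM in contralateral ones. The groups did not overlap (log2 fold change 0.81 ± 0.18, adjusted p = 0.118), and without the KO ipsilateral 48 h library it was 0.97 (adjusted p = 0.044, where 1.07% of 10785 genes were called). The difference from the hemisphere effect in microglia-like cells was 0.75 ± 0.20 (adjusted p = 0.115, where 1.09% of genes were called). Hmox1 had 290.8 to 531.4 CPM in ipsilateral and 148.7 to 499.2 CPM in contralateral monocyte/macrophage-like cells, overlapping ranges (0.55, adjusted p = 0.472), and Fth1 had 15370 to 23530 CPM in ipsilateral and 9306 to 18080 CPM in contralateral cells (0.62, adjusted p = 0.175). With DESeq2 in place of edgeR, Slc11a1 (adjusted p = 0.00272) and Fth1 (adjusted p = 0.036) passed the threshold in this class, as did 4.04% of all genes. Dissociation and heat-shock genes summed to 2513 to 2739 CPM in ipsilateral and 3858 to 6339 CPM in contralateral monocyte/macrophage-like sums, and microglia markers to 399.3 to 545.9 CPM in ipsilateral and 599.3 to 848.4 CPM in contralateral ones, and their part was not tested.

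**Figure D2:**
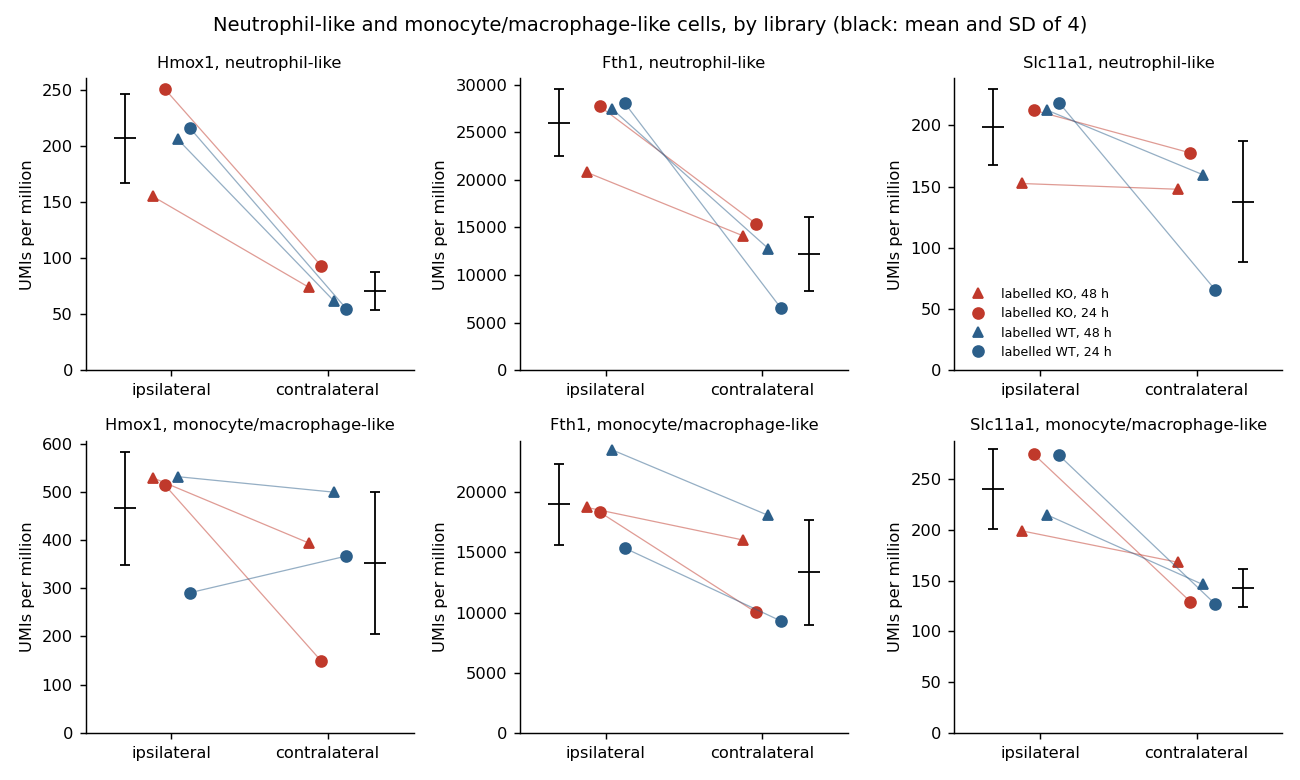
Hmox1, Fth1 and Slc11a1 in neutrophil-like cells (upper row) and monocyte/macrophage-like cells (lower row), in CPM, by hemisphere. Points are libraries as in the plot of microglia-like cells, with the mean and SD of 4 in black. The hemispheres do not overlap for Hmox1 and Fth1 in neutrophil-like cells or for Slc11a1 in monocyte/macrophage-like cells. How many of all genes lack overlap in these classes was not counted.

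T and NK cell-like cells held the members, Tfrc apart, at lower mean CPM than microglia-like, monocyte/macrophage-like and neutrophil-like cells. Fth1 had 1994 to 2525 CPM in ipsilateral and 1529 to 1879 CPM in contralateral cells, and Ftl1 had 931.1 to 1101 CPM in ipsilateral and 777.7 to 807.7 CPM in contralateral cells. Neither pair of ranges overlapped, but neither gene was called (log2 fold changes 0.34 ± 0.09, adjusted p = 0.0732, and 0.36 ± 0.10, adjusted p = 0.0777), in a class where 1.65% of 7230 genes were. With each genotype-by-time pair of hemispheres as a block Fth1 was called (0.33, adjusted p = 0.027, where 2.45% of genes were). In the same sums neutrophil markers were at 270.9 to 873.8 CPM in ipsilateral and 31.8 to 152.6 CPM in contralateral cells, dendritic cell markers at 110.3 to 213.8 CPM in ipsilateral and 35.8 to 107.5 CPM in contralateral cells, and dissociation and heat-shock genes at 1182 to 1534 CPM in ipsilateral and 1349 to 6069 CPM in contralateral cells. Their part was not tested. The other members tested in these cells, Hmox1 (1.04), Blvrb (-0.29) and Tfrc (1.17, adjusted p = 0.286), were not called either, and Slc40a1 and Slc11a1 were too low to be tested.

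**Figure D3:**
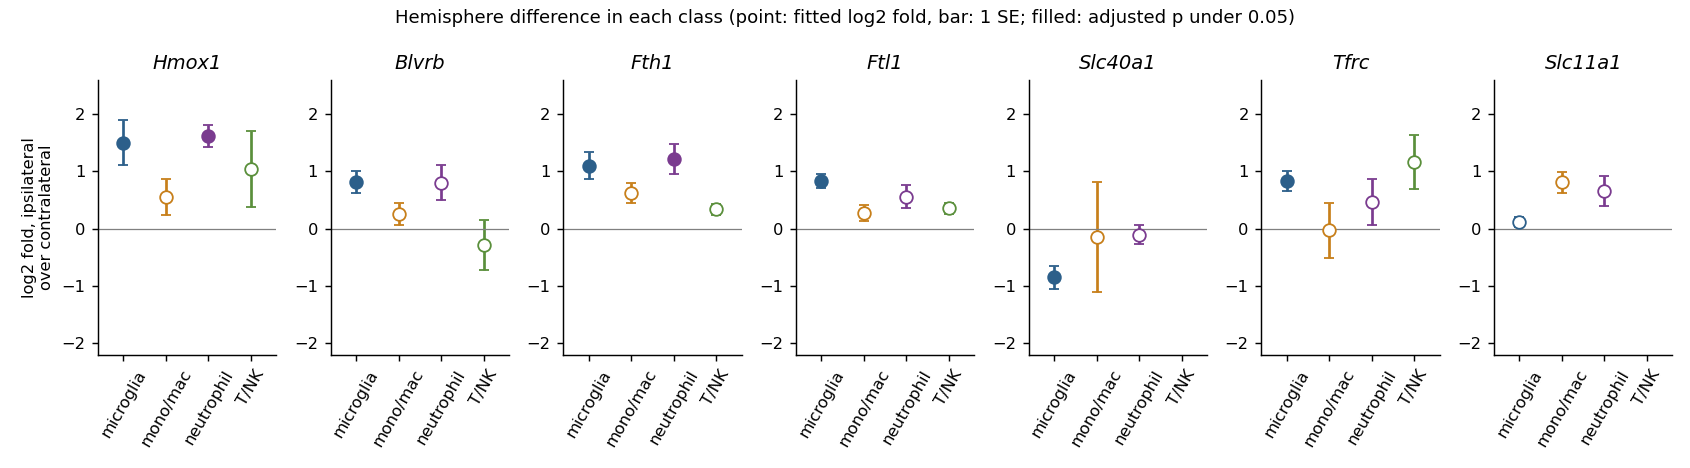
Log2 fold change of each member, ipsilateral over contralateral, in 4 classes. Points are the fitted values, bars are 1 SE, and filled points passed an adjusted p of 0.05. Filled points lie in the microglia-like column of every member except Slc11a1 and in the neutrophil-like column of Hmox1 and Fth1.

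Within the monocyte/macrophage-like class, cells were split by markers of monocytes and of macrophages that include no member, and 4 of the 7 members were higher on the macrophage side in every library. Of 8741 genes with UMIs in all sums, 11.2% were, and 6 members, all but Slc40a1, are among those genes. Cells on the macrophage side (1746) were set against those on the monocyte side (3943) within each library. Hmox1 averaged 875 ± 354 CPM on the macrophage side and 185 ± 68 CPM on the monocyte side (SD, n = 8 libraries) and was higher in 8 of 8 libraries. Blvrb averaged 144 ± 45 CPM on the macrophage side and 62.9 ± 10.1 CPM on the monocyte side, also higher in 8 of 8. Fth1 averaged 25430 ± 6721 CPM on the macrophage side and 10810 ± 3151 CPM on the monocyte side. Ftl1 averaged 15780 ± 4271 CPM on the macrophage side and 5774 ± 702 CPM on the monocyte side. Both ferritin chains were higher on the macrophage side in 8 of 8 libraries. Slc11a1 was higher there in 7 of 8 (229 ± 60 CPM, against 162 ± 56 CPM on the monocyte side) and Tfrc in 6 of 8 (17.01 ± 3.35 CPM, against 12.3 ± 13.2 CPM on the monocyte side). Slc40a1 was near 0 on both sides, higher on the macrophage side in 4 libraries and lower in 3 (1.47 ± 2.24 CPM on the macrophage side and 1.09 ± 1.29 CPM on the monocyte side). The markers of these sides were chosen with earlier results of these data known, and no test was run on the split.

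Between classes, ferroportin separated the 3 myeloid classes. Slc40a1 averaged 94.0 ± 18.8 CPM in neutrophil-like cells, 48.4 ± 24.7 CPM in microglia-like cells and 1.14 ± 1.15 CPM in monocyte/macrophage-like cells (SD, n = 8 libraries each). It was higher in neutrophil-like than in microglia-like cells in 7 of 8 libraries, and lower in monocyte/macrophage-like than in microglia-like cells in 8 of 8. At 3000 UMIs per cell it was found in 21.4% of neutrophil-like cells, 15.3% of microglia-like cells and 0.222% of monocyte/macrophage-like cells (0.127 to 0.361%). The share in T and NK cell-like cells was 0.131% (0.00332 to 0.728%), 1 cell of 763. In CPM pooled over libraries, Slc40a1 was at 1.09 in monocyte/macrophage-like cells (exact Poisson 95% interval 0.911 to 1.30; 129 UMIs, 74 of them from the KO ipsilateral 48 h library), against 0.200 in T and NK cell-like (0.00507 to 1.12; 1 UMI) and 0.311 in B cell-like cells (0.00787 to 1.73; 1 UMI). Monocyte/macrophage-like cells were above T and NK cell-like cells in 7 of 8 libraries and above B cell-like cells in 6 of 7, but most lymphoid sums held no UMI. Counts this low do not separate a small level of Slc40a1 in monocyte/macrophage-like cells from free RNA in these droplet data.

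The fit of classes over microglia-like cells, with library as a block, called 67.1% of 11909 genes in monocyte/macrophage-like, 78.6% in neutrophil-like, 59.2% in T and NK cell-like and 55.2% in B cell-like cells. It called 5, 6, 7 and 7 of the 7 members in these classes in the same order, beside a background that broad, and 4 to 7, 6, 7 and 5 to 7 with 1 library left out. In B cell-like cells Tfrc kept its call only without the WT contralateral 24 h or KO ipsilateral 24 h library (adjusted p up to 0.160 in the other 6 omissions), and Blvrb lost it without the WT contralateral 24 h (0.052) or WT contralateral 48 h library (0.060). In monocyte/macrophage-like cells Hmox1 lost it without the WT contralateral 48 h (0.136), WT ipsilateral 48 h (0.071) or KO contralateral 48 h library (0.140). Its folds also depend on the scaling between classes of unlike composition, which moved the median gene by 1.15 in neutrophil-like and 0.42 in monocyte/macrophage-like cells on the log2 scale. Slc40a1 kept its direction under both scalings, with 2.21 ± 0.25 in neutrophil-like cells (1.10 with plain totals) and -4.92 ± 0.32 in monocyte/macrophage-like cells (-5.31 with plain totals). Ftl1 and Slc11a1 in neutrophil-like cells changed sign (0.66 against -0.45, and 0.82 against -0.28 with plain totals), as did Blvrb (0.23 against -0.21) and Slc11a1 (0.31 against -0.09) in monocyte/macrophage-like cells. Orders below are given by CPM within each library, with no scaling between classes, and can differ from those of the scaled fit.

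Fth1 averaged 19110 ± 8144 CPM in neutrophil-like cells, 16180 ± 4701 CPM in monocyte/macrophage-like cells and 8117 ± 3865 CPM in microglia-like cells (SD, n = 8). The first 2 were not ordered in a stable way, with neutrophil-like cells higher in 5 of 8 libraries, whereas both were above microglia-like cells, in 8 and 7 of 8. It averaged 3085 CPM in B cell-like cells and 1970 CPM in T and NK cell-like cells, with B cell-like cells higher in 7 of 7. Ftl1 had another order. It averaged 9332 CPM in monocyte/macrophage-like, 6220 CPM in microglia-like and 4570 CPM in neutrophil-like cells, monocyte/macrophage-like cells being above microglia-like cells in 7 of 8 libraries and microglia-like above neutrophil-like cells in 7 of 8. By CPM neutrophil-like cells were thus above microglia-like cells in Fth1 in 8 of 8 libraries and in Ftl1 in 1 of 8. The scaled edgeR fit of classes called Ftl1 higher in neutrophil-like than in microglia-like cells (0.66 ± 0.12, adjusted p = 7.9e-06). That order of Ftl1 therefore holds for CPM alone. The same fit called Fth1 higher in neutrophil-like than in monocyte/macrophage-like cells (0.87 ± 0.19, adjusted p = 0.000102).

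Hmox1 averaged 409 ± 137 CPM in monocyte/macrophage-like cells and 398 ± 231 CPM in microglia-like cells, with 3 of 8 libraries higher in the first, so these neighbours were not separated. Neutrophil-like cells averaged 139 ± 78 CPM and were below both in 8 of 8 libraries, and T and NK cell-like and B cell-like cells averaged 10.9 and 9.5 CPM. The scaled edgeR fit of classes did not call Hmox1 in neutrophil-like over microglia-like cells (-0.34 ± 0.33, adjusted p = 0.349), so that order holds for CPM alone. Slc11a1 averaged 196 CPM in microglia-like, 192 CPM in monocyte/macrophage-like and 168 CPM in neutrophil-like cells, with 4 of 8 and 6 of 8 libraries in that order between neighbours, and 6.8 and 4.7 CPM in B cell-like and T and NK cell-like cells. Among these 5 classes both genes were thus higher in the 3 myeloid than in the lymphoid ones. By CPM Slc11a1 gave no order among the 3 myeloid classes. The scaled edgeR fit called it higher in neutrophil-like than in microglia-like cells (0.82 ± 0.17, adjusted p = 3.2e-05). In that fit monocyte/macrophage-like over neutrophil-like cells was -0.50 ± 0.17 (adjusted p = 0.0065).

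Blvrb and Tfrc were highest in B cell-like cells among the 5 large classes. Blvrb averaged 155 ± 44 CPM in B cell-like cells (n = 7 libraries, since the KO contralateral 24 h library held 10 such cells), 105 CPM in microglia-like, 88.3 CPM in monocyte/macrophage-like, 18.9 CPM in neutrophil-like and 14.9 CPM in T and NK cell-like cells. It was higher in B cell-like than in microglia-like cells in 6 of 7 libraries, and a Blvrb UMI was found in 31.9% of B cell-like cells after thinning. Tfrc averaged 41.0 CPM in B cell-like and 27.7 CPM in microglia-like cells, higher in B cell-like cells in 6 of 7 libraries, and 13.9, 12.9 and 7.8 CPM in monocyte/macrophage-like, T and NK cell-like and neutrophil-like cells. Among those last 3, neighbours were not separated, with 4 of 8 and 5 of 8 libraries in that order.

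**Figure D4:**
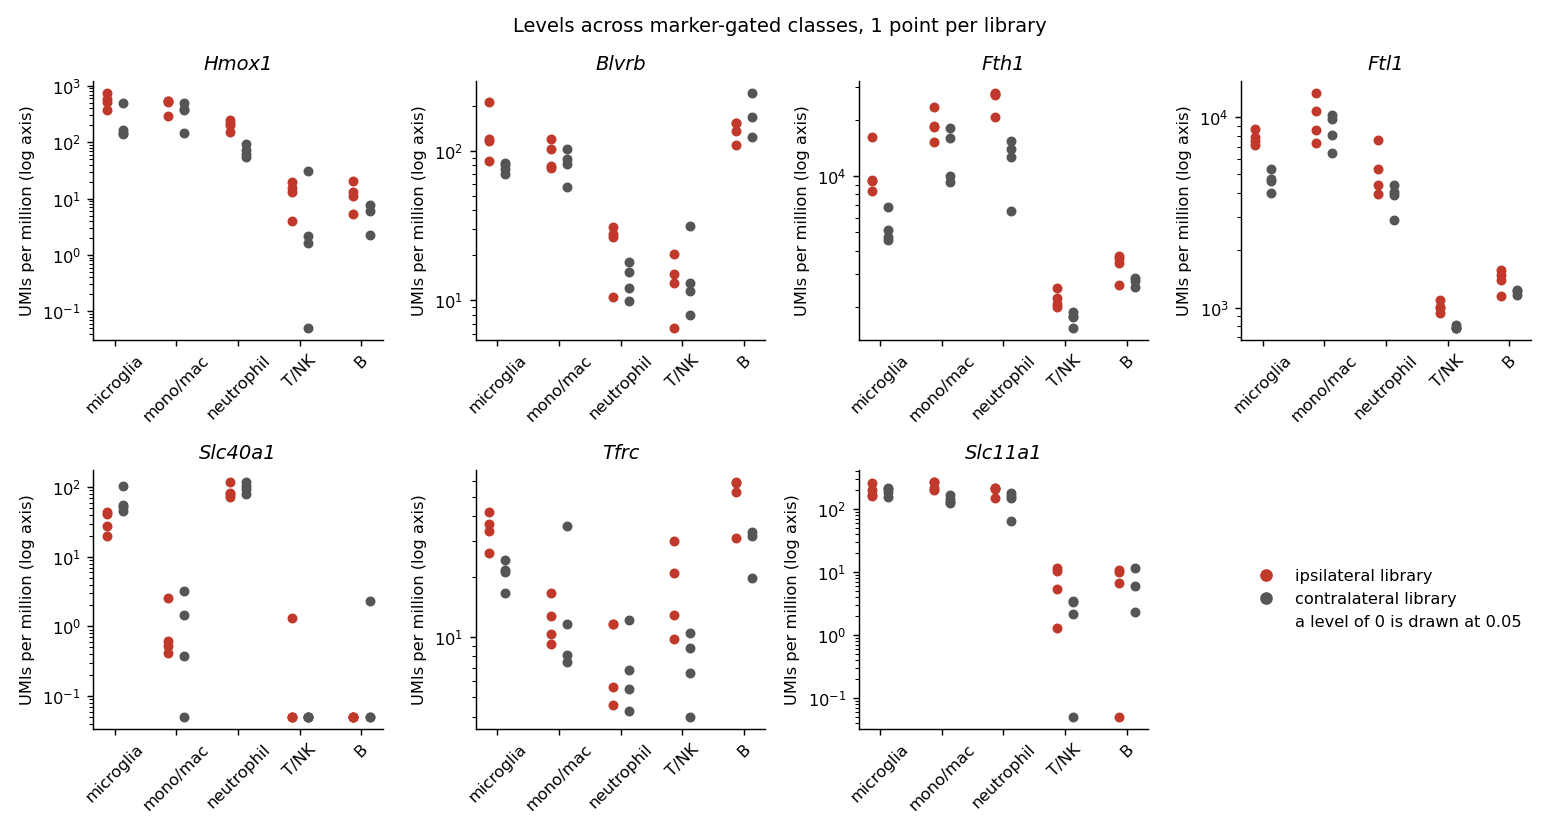
Levels of the 7 members in 5 classes, in CPM on a log axis, 1 point per library. Slc40a1 lies between 20.2 and 120.4 in microglia-like and neutrophil-like cells and at 3.2 or less in the other classes, and Hmox1 and Slc11a1 are low in T and NK cell-like and B cell-like cells.

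Rare classes were pooled over libraries, so their values carry counting error only. Border macrophage-like cells (107), the resident macrophages of meninges and vessels, had 1613 CPM of Hmox1 (exact Poisson 95% interval 1536 to 1693), 381 CPM of Blvrb and 395 CPM of Cd163, the receptor for hemoglobin bound to haptoglobin. Their Hmox1 was 2260 CPM in 45 ipsilateral cells and 929 CPM in 62 contralateral ones. Their Slc40a1 was 64.3 CPM in ipsilateral cells (44.6 to 89.9) and 262 CPM in contralateral ones (219 to 311). Each library gave 7 to 25 of these cells. In the 2 libraries with at least 20 of them, Slc40a1 ran the other way, at 98.7 CPM in the KO ipsilateral 24 h library (16 UMIs) and 39.7 CPM in the KO contralateral 48 h library (7 UMIs), so most of the 131 contralateral UMIs came from the other 3 contralateral libraries. Hmox1 was at 2368 CPM in the first of these libraries and 215.4 CPM in the second. Mural-like cells (30) had 332 CPM of Hmox1 and endothelial-like cells 256 CPM of Hmox1 and 140 CPM of Slc11a1. Whether these UMIs came from the cells themselves or from free RNA was not tested. Endothelial-like cells (54) had 123 CPM of Tfrc (95 to 156), the receptor known to carry transferrin iron across the vessel wall, and 73.5 CPM of Slc40a1. Oligodendrocyte lineage-like cells (80) had 26570 CPM of Fth1 and 60.6 CPM of Tfrc. Dendritic cell-like cells (96) had 13.9 CPM of Hmox1 and no Slc40a1 UMI among 1369448, which allows up to 2.19 CPM, taken as 3 UMIs of that total. The erythroid-like gate (190 cells) had 259 CPM of Blvrb, a known red cell enzyme, and 169 CPM of Slc11a1, so it held more than red cell transcripts.

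By genotype label no member was called in any of the 4 classes tested. In microglia-like cells the log2 fold changes, KO label over WT label, were -0.70 ± 0.20 for Slc40a1 (adjusted p = 0.309), -0.38 ± 0.39 for Hmox1 (0.793), -0.30 ± 0.20 for Blvrb, -0.13 ± 0.24 for Fth1, -0.01 ± 0.12 for Ftl1, -0.04 ± 0.09 for Slc11a1 and 0.18 ± 0.17 for Tfrc. Slc40a1 was lower under the KO label in 4 of 4 pairs of libraries, and DESeq2 called it (-0.69, adjusted p = 0.0143). Without the WT contralateral 24 h library it was -0.53 (adjusted p = 0.518). In the 48 h libraries alone, where Prdx1 followed the label, it was -0.39 (adjusted p = 0.082) and Hmox1 was 0.27 (adjusted p = 0.572). Without the WT contralateral 24 h library the Hmox1 value was near 0 (-0.0017). By label, few genes were called over all 8 libraries with edgeR: 7 of 13635 in microglia-like cells (0.0513%; 1500 at an unadjusted p under 0.05), 0 of 11037 in monocyte/macrophage-like cells (169), 0 of 8756 in neutrophil-like cells (149) and 1 of 7230 in T and NK cell-like cells (0.0138%; 342). In microglia-like cells 365 of 12536 genes (2.91%) were called in the 48 h libraries alone and 132 (0.968%) with DESeq2.

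Between 48 h and 24 h, 1 member was called. Slc11a1 in microglia-like cells fell at 48 h, to 158.1 to 188.6 CPM against 200.9 to 259.0 CPM at 24 h, and the ranges did not overlap (log2 fold change -0.42 ± 0.09, adjusted p = 0.0164). Of all genes, 12.7% were called there. The call was lost without the KO contralateral 24 h (adjusted p = 0.053), WT ipsilateral 48 h (0.063) or KO ipsilateral 48 h library (0.068), with log2 fold changes of -0.49 to -0.33 over the 8 omissions. Hmox1 was lower at 48 h in 3 of 4 pairs (-0.77 ± 0.39, adjusted p = 0.274), and -0.39 without the WT contralateral 24 h library (adjusted p = 0.220). In monocyte/macrophage-like cells Ftl1 was 0.50 ± 0.14 (adjusted p = 0.192) and Fth1 0.53 ± 0.18 (adjusted p = 0.264), and in neutrophil-like cells Hmox1 was -0.55 ± 0.18 (adjusted p = 0.237). None was called, against 0.0634%, 0.308% and 0.0553% of all genes in monocyte/macrophage-like, neutrophil-like and T and NK cell-like cells.

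Whether the hemisphere difference itself changed with time or label was tested by interaction terms, and no member passed in any class. In microglia-like cells the hemisphere log2 fold change at 48 h minus that at 24 h was -0.88 ± 0.33 for Fth1 (adjusted p = 0.289), -0.68 ± 0.24 for Tfrc (0.274), 0.74 ± 0.27 for Slc40a1 (0.310) and 0.73 ± 0.82 for Hmox1 (0.764), where 0.103% of genes passed (0% in monocyte/macrophage-like, 0% in neutrophil-like and 0.0138% in T and NK cell-like cells). The separate values for Fth1 were 0.67 at 48 h and 1.52 at 24 h, and for Slc40a1 -0.43 at 48 h and -1.20 at 24 h. Without the WT contralateral 24 h library the term for Hmox1 changed sign (-0.29, adjusted p = 0.898), as it did without the KO ipsilateral 48 h library (-0.0626), and the others were -0.77 (Fth1), -0.56 (Tfrc) and 0.59 (Slc40a1). In that fit the 24 h effect on Slc40a1 was -1.05 (adjusted p = 0.0501), against -1.19 (adjusted p = 0.00398) with all 8 libraries. Under the KO label minus the WT label the difference was 0.99 ± 0.64 for Hmox1, -0.72 ± 0.26 for Blvrb and -0.76 ± 0.38 for Fth1 (0.20, -0.58 and -0.55 without the WT contralateral 24 h library), where 0.00733% of genes passed (0% in monocyte/macrophage-like, 0.0114% in neutrophil-like and 0% in T and NK cell-like cells). These terms rest on 8 libraries, and a miss does not show that the effects were alike.

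The wider pathway was followed in 8 lists of 71 genes, of which 67 are in the tables and 56 were tested in microglia-like cells. Of these 17 were higher and 9 lower in the ipsilateral hemisphere, with a median log2 fold change of 0.16, against -0.01 for all genes tested. The called share of 26 in 56 lies near the 43.9% of all genes, and in the libraries labelled WT alone 4 were higher and 1 lower, near the 9.22% of all genes called there.

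Regulators of the pathway held the largest change. Maff, a small Maf protein that pairs with CNC-family factors at antioxidant response elements, had 65.8 CPM (KO label, 24 h), 88.5 CPM (KO, 48 h), 49.8 CPM (WT, 24 h) and 76.7 CPM (WT, 48 h) in ipsilateral microglia-like cells, against 15.1, 17.3, 12.8 and 28.3 CPM in contralateral ones. The groups were far apart (2.04 ± 0.22, adjusted p = 0.00091). Nfe2l2, which encodes NRF2, the factor known to drive Hmox1 and the ferritin genes, had 418.9 to 462.2 CPM in ipsilateral and 298.5 to 357.7 CPM in contralateral cells (0.53 ± 0.09, adjusted p = 0.0020). Mafk was also higher (0.49), and Ireb2, which encodes iron regulatory protein 2, was lower (-0.32). Of 9 regulators tested 3 thus rose and 1 fell, a share near the 43.9% of all genes called in these cells. The antioxidant response element core TGACNNNGC was searched on both strands in the 250 bases upstream of the start sites that RefSeq gives for Blvrb, Fth1, Ftl1, Tfrc and Slc11a1, and none of 8 such windows held it, against 10.2% of 32851 promoters. Hmox1 and Slc40a1 were not searched. Those letters are simply not in these windows, and the search cannot speak of elements beyond the 250 bases.

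Iron uptake genes changed in both directions. Slc39a14 (ZIP14), a carrier of iron that is not bound to transferrin, had 110.5 CPM (KO label, 24 h), 102.9 CPM (KO, 48 h), 89.6 CPM (WT, 24 h) and 58.4 CPM (WT, 48 h) in ipsilateral microglia-like cells, against 48.4, 68.9, 33.0 and 29.0 CPM in contralateral ones. Each pair was higher on the ipsilateral side, although the WT 48 h ipsilateral value lay below the highest contralateral one (1.16 ± 0.16, adjusted p = 0.0017). Steap3, a reductase of endosomal iron, was higher (0.68) at 4.6 to 7.8 CPM in ipsilateral and 3.1 to 5.1 CPM in contralateral cells. Trf, transferrin itself, was lower, at 382.8 to 532.1 CPM in ipsilateral and 543.5 to 887.7 CPM in contralateral cells (-0.61 ± 0.10, adjusted p = 0.0012), and so was Slc22a17, a receptor for lipocalin 2 (-0.89). The iron uptake list thus had 2 higher and 2 lower of 9 tested, a share near that of all genes.

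Heme transport and synthesis moved in part. Slc48a1 (HRG1), which moves heme out of the lysosome, had 31.8 to 56.5 CPM in ipsilateral and 22.8 to 25.2 CPM in contralateral cells (0.78 ± 0.17, adjusted p = 0.0098). Flvcr1, described as a heme exporter, was higher (0.54) and the folate and heme carrier Slc46a1 lower (-0.36). Hp, which encodes haptoglobin, the binder of free hemoglobin and also a neutrophil transcript, was higher (1.70 ± 0.38) at 4.7 to 23.5 CPM in ipsilateral and 1.0 to 5.9 CPM in contralateral cells, and lost its call without the KO ipsilateral 24 h library (adjusted p = 0.051). Neutrophil markers summed to 361.4 to 1152 CPM in the same ipsilateral and 222.6 to 563.8 CPM in the same contralateral sums, and their part was not tested. Alas1, the first and rate-limiting enzyme of heme synthesis, had 68.0 to 100.6 CPM in ipsilateral and 48.1 to 57.2 CPM in contralateral cells (0.68 ± 0.11, adjusted p = 0.0014). Alad was higher (0.46), Ppox was lower (-0.21), and 8 of the 12 synthesis genes were not called, in cells where 43.9% of all genes were. Ppox kept its call in 2 of 8 omissions, of the WT contralateral 48 h and KO ipsilateral 48 h libraries, with adjusted p up to 0.158 in the other 6. Por, the reductase that feeds electrons to heme oxygenase, was higher (0.79), and Hmox2 and Blvra were not called.

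In the remaining lists, the chaperone Pcbp2, which delivers iron to ferritin, was higher (0.37) and Ncoa4, the receptor that sends ferritin to the lysosome, was lower, at 35.9 to 38.9 CPM in ipsilateral and 44.2 to 66.8 CPM in contralateral cells (-0.36 ± 0.09, adjusted p = 0.0099). Bmpr2, of the hepcidin axis, was lower (-0.49), the 1 call among 3 tested. Of 10 mitochondrial iron and iron-sulfur genes 4 were higher and 2 lower, among them Glrx5 (0.28), Slc25a28 (0.24), Iscu (-0.29) and the iron importer Slc25a37 (-0.27). In microglia-like cells 43.9% of all genes were called. Glrx5 (adjusted p = 0.055) and Iscu (0.067) lost their calls without the KO contralateral 24 h library, and Slc25a28 (0.060) without the KO contralateral 48 h library. In neutrophil-like cells 2 of 45 tested list genes were called, both higher in the ipsilateral hemisphere, against 1.4% of all genes. Alas1 had 180.9 to 201.1 CPM in ipsilateral and 82.0 to 137.2 CPM in contralateral neutrophil-like cells (0.91 ± 0.15, adjusted p = 0.0229), and Maff had 48.9 to 76.3 CPM in ipsilateral and 13.1 to 33.0 CPM in contralateral ones (1.52 ± 0.27, adjusted p = 0.0262). Each lost its call in 6 of 8 omissions, with adjusted p up to 0.130 for Alas1, which kept it without the WT contralateral 24 h or KO ipsilateral 48 h library, and up to 0.128 for Maff, which kept it without the WT contralateral 48 h or KO ipsilateral 48 h library. None of 54 was called in monocyte/macrophage-like cells and none of 36 in T and NK cell-like cells. By genotype label none of 56 was called in microglia-like cells, and between 48 h and 24 h 4 were higher and 3 lower, near the 12.7% of all genes called in that comparison.

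**Figure D5:**
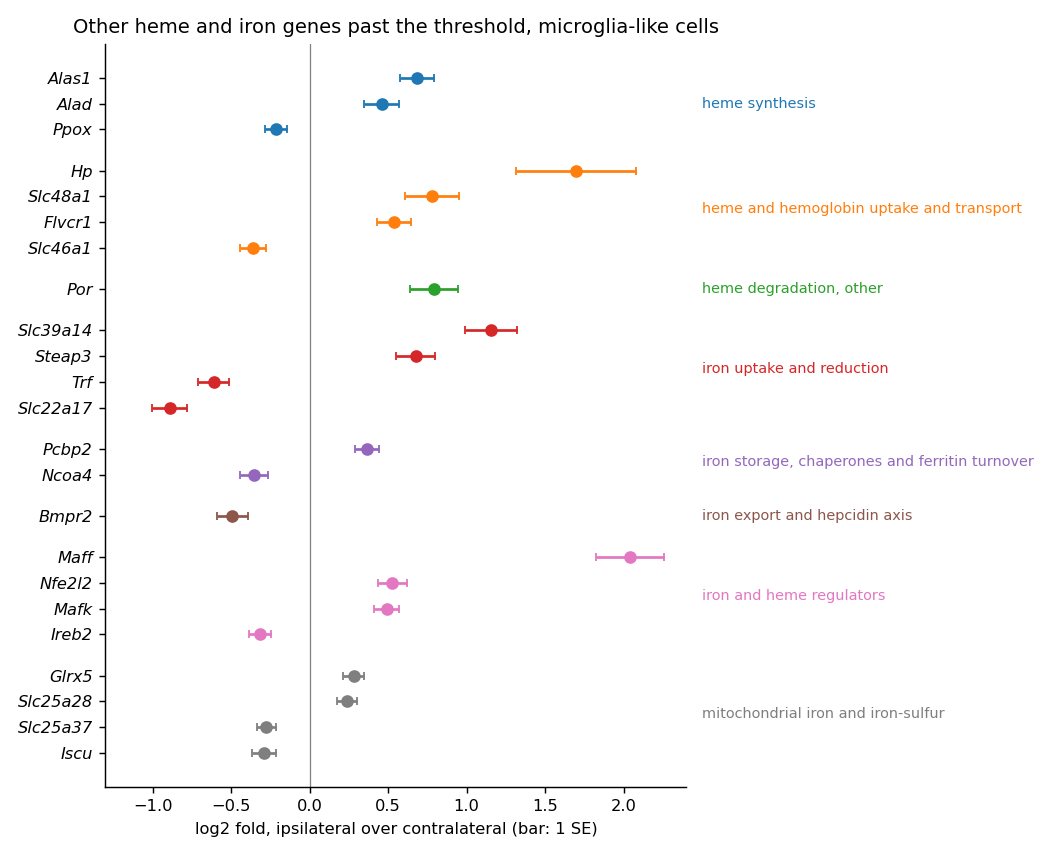
Log2 fold change, ipsilateral over contralateral, of the other heme and iron genes that passed the threshold in microglia-like cells and are named in the text, grouped by list. Points are fitted values and bars are 1 SE. Maff (2.04), Hp (1.70) and Slc39a14 (1.16) lie farthest to the right and Slc22a17 (-0.89) farthest to the left.

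The plot of the wider pathway shows that most lists hold genes on both sides of 0. Across 46 sums of class and library, the gene most like Hmox1 in log2(CPM + 1) among 5710 genes was another member, Slc11a1 (Pearson's r = 0.925), followed by Ftl1 (0.921) and Ltbr (0.919). Fth1 ran most closely with Cxcl2 (0.924), Gpr35 and Slc7a11, Ftl1 with Ier3 (0.938), Ltbr and Fnip2, and Slc11a1 with C5ar1 (0.939), Ltbr and Cd14. Blvrb ran with Cd86 (0.856), Lmo2 and Sdc4, and Slc40a1 with Alox5 (0.907), Cmtm6 and Hcar2. Tfrc had the weakest match, Kpna1 (0.726), and its correlation with the other 6 members was -0.12 to 0.46. These values describe the sums and carry no test: classes of 1 library share its depth and handling, and much of each r is the contrast of myeloid and lymphoid classes.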

How the data were processed

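Each of the 8 deposited tables holds raw UMI counts, genes by cells, of 1 library. Per the labels' protocols the chemistry was 10x Genomics 3' end counting, and the submitters' processing notes list Cell Ranger, Seurat and mm10; their versions and settings are not given in the sources used here. A 3' kit reads transcript ends, so UMIs were not divided by gene length and levels were not compared between genes.

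Cells under 200 genes or over 10% mitochondrial UMIs were dropped (337), and the top 0.8% per 1000 cells of a simulated-doublet score were left out (1583 cells). A cell joined a class if it showed 3 or more of that class's markers and scored at least 1.5 times higher for it than for any other; 1659 gated cells (4.63%) lay near that limit. Counts were summed per class and library and fitted with edgeR 4.0.16 (R 4.3.3; TMM scaling, filterByExpr, robust quasi-likelihood) on hemisphere, genotype label and time over all 8 libraries, for classes with at least 20 cells in each. With 1 library per combination, the residual spread comes from libraries that differ in the other factors. The fit was also run on simulated counts without label or time effects or an outlying library. That run does not show its error rates in these libraries. DESeq2 1.42.0, other scalings, filters, gates and clusters (scanpy 1.11.5, leidenalg 0.10.2) and the omission of each library were alternatives. Scripts ran in Python 3.11.15 with scipy 1.17.1, pandas 2.3.3, numpy 2.4.6 and matplotlib 3.10.9.

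Iron-responsive elements were read from the GRCm38 genome with the GENCODE annotation, and promoters from RefSeq. Named genes were the 7 members, up to 4 called genes per pathway list with the smallest p, and the 3 genes most like each member. A gene of the lists that met this rule is not reported here. The members and lists were chosen with earlier results of these data known. Intervals cover counting error only.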

Additional observations from a re-analysis of the deposited data

Results flagged for a closer look

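In groups of 4 libraries of 1 hemisphere, 56 combinations of member and class were examined for a library far from the other 3, and 11 stood out by Dixon's criterion, which sets the gap to the nearest library against the range. Chance gives about 1 in 20, here 2.8.

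The WT contralateral 24 h library gave 4 of them. Its microglia-like cells had 499.3 CPM of Hmox1, against 142.3 to 162.6 CPM in the other 3 contralateral libraries, and 102.5 CPM of Slc40a1, against 45.3 to 54.6 CPM. Hspa1a (3140 CPM) and Hspa1b (2383 CPM) were the highest of the 8 libraries in the same cells, and their part in these values was not tested. Its monocyte/macrophage-like cells had 35.6 CPM of Tfrc (67 UMIs), against 7.5 to 11.6 CPM, and its T and NK cell-like cells had 31.3 CPM of Hmox1 (9 UMIs), against 0 to 2.2 CPM.

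The WT ipsilateral 24 h library had 16250 CPM of Fth1 in microglia-like cells, against 8364 to 9608 CPM in the other 3 ipsilateral libraries, and 290.8 CPM of Hmox1 in monocyte/macrophage-like cells, against 513.2 to 531.4 CPM. The KO ipsilateral 48 h library had 20780 CPM of Fth1 and 152.5 CPM of Slc11a1 in neutrophil-like cells, against 27460 to 28080 CPM and 212.3 to 218.5 CPM. It also had 2.55 CPM of Slc40a1 (74 UMIs) in monocyte/macrophage-like cells, against 0.418 to 0.616 CPM, and 1.31 CPM in T and NK cell-like cells (1 UMI), where the other 3 had none. The KO contralateral 24 h library had 807.7 CPM of Ftl1 in T and NK cell-like cells (203 UMIs), against 777.7 to 779.6 CPM, a gap that is wide only beside the closeness of the other 3.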

How the results depend on the processing

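Every alternative kept the direction of the 6 called members between hemispheres in microglia-like cells and of Hmox1 and Fth1 in neutrophil-like cells. Calls were lost for microglia-like Hmox1 without a low-count filter (1.46) and at 24 h alone (1.25), Blvrb at 48 h alone (0.50), Ftl1 (0.87) and Slc40a1 (-0.67) under the WT label alone, and Tfrc at 48 h alone (0.47) and under the WT label alone (0.75). Neutrophil-like Hmox1 lost its call at 24 h (1.85) and 48 h alone (1.33), and Fth1 with RLE scaling (1.18), at most 5% mitochondrial UMIs (1.24), at 24 h (1.61) or 48 h alone (0.77) and under the WT (1.50) or KO label alone (0.91). Fits on part of the libraries have fewer samples. For the others the cause was not tested.

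With 1 library left out, the log2 fold change between hemispheres ranged from 1.17 to 1.93 (Hmox1), 0.63 to 0.97 (Blvrb) and -1.04 to -0.65 (Slc40a1) in microglia-like cells, and from 1.49 to 1.75 (Hmox1), 0.97 to 1.39 (Fth1) and -0.28 to 0.0184 (Slc40a1) in neutrophil-like cells. The 48 h minus 24 h difference of that effect on Hmox1 in microglia-like cells ranged from -0.29 to 1.34. The omissions for that difference were chosen after the data were seen, as were the libraries labelled KO alone and plain totals. Values not called that changed sign were Slc40a1 (-1.19 to 0.82) and Tfrc (-0.36 to 0.57) in monocyte/macrophage-like cells and Blvrb in T and NK cell-like cells (-0.58 to 0.11). In microglia-like cells they were, by label, Fth1 (-0.35 to 0.14), Ftl1 (-0.11 to 0.11) and Slc11a1 (-0.11 to 0.0479), and, by time, Fth1 (-0.33 to 0.16), Ftl1 (-0.14 to 0.0598) and Tfrc (-0.30 to 0.0247).

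Other values that changed sign were not called in the main analysis, except for 2 class levels. By time in microglia-like cells, at most 5% mitochondrial UMIs gave 0.0227 (Ftl1) and 0.0339 (Tfrc). By label, 48 h alone gave 0.0514 (Fth1), 0.27 (Hmox1) and 0.0593 (Slc11a1), and a stricter gate 0.0095 (Ftl1). Between hemispheres in monocyte/macrophage-like cells, Slc40a1 became 0.10 (stricter gate), 0.46 (doublets kept), 0.0803 (genotype-by-time pair block), 0.70 (48 h alone) and 0.98 (KO label alone). Tfrc became 0.0099 (no filter), 0.11 (stricter gate), 0.0144 (at most 5% mitochondrial UMIs), 0.0201 (pair block), 0.75 (48 h alone) and 0.75 (KO label alone). Blvrb was -0.0088 under the KO label alone and Hmox1 -0.0551 under the WT label alone. Slc11a1 in microglia-like cells was -0.0262 under the KO label alone, and in neutrophil-like cells Slc40a1 was 0.0567 with clusters and 0.0169 under the WT label alone and Tfrc -0.45 at 24 h alone. Levels over microglia-like cells with plain totals were -0.45 (Ftl1) and -0.28 (Slc11a1) in neutrophil-like cells, both called before, and -0.21 (Blvrb) and -0.092 (Slc11a1) in monocyte/macrophage-like cells.

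Members called between hemispheres numbered 3 under the WT label alone in microglia-like cells (6 as reported). In neutrophil-like cells (2) they numbered 1 with RLE scaling, at most 5% mitochondrial UMIs, or either label alone, and 0 at 24 h or 48 h alone, with 0 to 2 over omissions. In monocyte/macrophage-like cells (0) they numbered 2 with DESeq2 and 0 to 2 over omissions. In T and NK cell-like cells (0) they numbered 2 without a filter or with doublets kept, 1 with the pair block or either label alone, and 0 to 1 over omissions. By label, DESeq2 called 1 in microglia-like cells (0 as reported), and by time omissions gave 0 to 2 there (1 as reported).

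List genes called between hemispheres in microglia-like cells numbered 11 higher at 48 h alone and 4 higher and 1 lower under the WT label alone (17 and 9 as reported). In neutrophil-like cells (2 higher, 0 lower) 5 were higher without a filter or with clusters, 4 with DESeq2 or a stricter gate, 0 at 24 h or 48 h alone and 1 under the WT label alone, 1 was lower without a filter and under the WT label alone, and omissions gave 0 to 4 higher and 0 to 1 lower.

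All genes called between hemispheres numbered 5989 in microglia-like cells and 3429 at 48 h alone, 1216 under the WT label and 3567 under the KO label. In monocyte/macrophage-like cells (28) the count was 131 without a filter, 446 with DESeq2, 97 with a stricter gate, 79 with clusters, 82 at 48 h alone, 5 and 283 under the WT and KO labels alone, and 0 to 147 over omissions. In neutrophil-like cells (123) it was 691, 272, 249 and 355 under the first 4 of these, 3 at 24 h and 0 at 48 h alone, 296 and 214 under the WT and KO labels alone, and 0 to 558 over omissions. In T and NK cell-like cells (119) it was 284 without a filter, 67 with DESeq2, 6 at 24 h and 198 at 48 h alone, 244 under the KO label alone, and 11 to 136 over omissions. By label in microglia-like cells (7) it was 0 with RLE scaling, a stricter gate, doublets kept or at most 5% mitochondrial UMIs, 23 without a filter, 132 with DESeq2, 365 at 48 h alone and 0 to 29 over omissions. By label it was also 3 with DESeq2 and 1 at 48 h alone in monocyte/macrophage-like cells (0), 23 without a filter and 0 to 1 over omissions in neutrophil-like cells (0), and 25 without a filter, 2 with a stricter gate or clusters, 84 at 48 h alone and 1 to 4 over omissions in T and NK cell-like cells (1). By time it was 982 with at most 5% mitochondrial UMIs and 865 to 1568 over omissions in microglia-like cells (1738), and 39 without a filter, 415 with DESeq2, 25 with a stricter gate, 2 with at most 5% mitochondrial UMIs, 1 with clusters and 0 to 157 over omissions in monocyte/macrophage-like cells (7). In neutrophil-like cells (27) it was 498 without a filter, 194 with DESeq2, 165 with a stricter gate and 4 to 142 over omissions, and in T and NK cell-like cells (4) 47, 8 with DESeq2 and 1 to 17 over omissions. Over microglia-like cells, 4253 genes were called in B cell-like cells with at most 5% mitochondrial UMIs (6575 as reported).

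The labels give no replicate numbers. The hemisphere fit with each genotype-by-time pair as a replicate block changed no call of a member in microglia-like or neutrophil-like cells and called Fth1 in T and NK cell-like cells (0.33, adjusted p = 0.027). Depth limits Slc40a1 in lymphoid and monocyte/macrophage-like cells. In contralateral neutrophil-like cells it limits members with few UMIs, such as Tfrc (23 UMIs) and Blvrb (54 UMIs), and not Fth1 (44527 UMIs). The small number of those cells bears on every member.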
